A study of Mus musculus with 6 samples.

Results

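Klf1, Gata1, Tal1, Rhag, Epb42, Ahsp, Hemgn, Slc4a1 and Tfrc, a set of regulators, membrane proteins and an iron receptor of the red cell lineage, were followed in embryonic mouse kidneys. Their probe sets were taken from the deposited array table wherever the platform annotation gave exactly 1 gene symbol and that symbol was one of the 9, which gave 16 of 45101 probe sets, for 8 of the 9 genes and of 18194 genes on the array. Ahsp was not analysed here. Of the 16, 3 were Tfrc control probe sets of the array, which entered no test.

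The 6 arrays measured total RNA of whole kidneys at embryonic day 12.5, one array per sample. The 3 knockout samples carried Hoxb7-Cre,Gfp and a beta-catenin allele with loxP sites around exons 2 to 6, and the 3 normal samples came from mice named only as normal, with no strain given. Hoxb7-Cre acts in the ureteric bud epithelium, so other cells of the knockout kidneys, blood included, are not its target. Dissected kidneys were distributed at random over the vials of each group. The number of animals in a vial is not given, so each p-value reflects sample-to-sample spread only, and that spread may be technical. The free-text description of the knockout samples repeats the wording for normal kidney, and the groups follow the titles and source names. Ctnnb1, the gene of beta-catenin, had a signal of 6777, 6779 and 6586 in knockout kidneys, against 5707, 6760 and 6549 in normal kidneys, a log2 difference of 0.09 (limma, adjusted p = 0.695). Whether its probes lie inside the floxed exons was not analysed here, so this is no check of the labels.

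Red cells of the embryo mature in the yolk sac, the fetal liver and the circulation, and the kidney is not a known site of their formation in the mouse. Transcripts of this lineage in a dissected kidney can come from blood held in its vessels. Red cell precursors depend on GATA1 and TAL1, and KLF1 drives globin and membrane genes. Band 3, protein 4.2 and the Rh-associated glycoprotein are joined in a membrane complex that is built late.

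The promoters of the regulator Klf1 and of Rhag, Epb42 and Hemgn are shown because these 4 genes, with Slc4a1, had the highest pairwise correlations over the 6 arrays. Each is the 250 bases before the transcription start in RefSeq, mouse build GRCm38.p6, read 5′ to 3′ on the strand of the gene, with matches to the GATA motif in capitals. They lie at chr8:84901732-84901981 on the plus strand for Klf1, chr17:40810899-40811148 on the plus strand for Rhag, chr2:121036878-121037127 on the minus strand for Epb42 and chr4:46404184-46404433 on the minus strand for Hemgn.
Klf1: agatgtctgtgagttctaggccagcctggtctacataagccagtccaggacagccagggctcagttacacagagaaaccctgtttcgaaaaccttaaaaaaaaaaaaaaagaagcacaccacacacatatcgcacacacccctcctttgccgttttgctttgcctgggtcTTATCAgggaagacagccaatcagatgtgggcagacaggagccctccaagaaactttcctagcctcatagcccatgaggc
Rhag: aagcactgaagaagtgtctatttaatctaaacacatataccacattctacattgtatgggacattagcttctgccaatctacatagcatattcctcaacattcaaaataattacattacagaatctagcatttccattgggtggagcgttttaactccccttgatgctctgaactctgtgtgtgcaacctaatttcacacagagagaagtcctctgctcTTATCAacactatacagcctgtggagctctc
Epb42: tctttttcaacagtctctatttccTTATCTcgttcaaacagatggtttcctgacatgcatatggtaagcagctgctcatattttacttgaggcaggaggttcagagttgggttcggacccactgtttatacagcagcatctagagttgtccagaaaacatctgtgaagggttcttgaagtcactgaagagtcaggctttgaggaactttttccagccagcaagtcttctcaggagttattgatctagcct
Hemgn: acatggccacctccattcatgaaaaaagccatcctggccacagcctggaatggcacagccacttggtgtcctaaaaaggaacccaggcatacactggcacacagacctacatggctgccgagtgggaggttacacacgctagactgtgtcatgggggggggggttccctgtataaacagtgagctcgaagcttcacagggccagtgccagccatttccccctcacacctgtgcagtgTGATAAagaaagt

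The GATA motif was searched on both strands, with AGATAA as its first spelling and AGATAG as its next. The spelling TGATAA was also taken, and so was TGATAG. Each of these 4 windows held 1 match, which began 80 bases before the start in Klf1, 31 in Rhag, 226 in Epb42 and 13 in Hemgn. Of all 32851 RefSeq windows of this length, 26.5% held at least 1 match. The windows of Gata1 and Tfrc held none, and 1 of the 2 windows of Tal1 held 1. The motif CCNCNCCC, of the kind that KLF factors bind, was in 45.9% of all windows and in none of those of Klf1, Rhag and Epb42. It had 4 overlapping matches in a single run of G in the Hemgn window and 3 in that of Gata1. Of the Tal1 windows, 1 had 4 and the other none, and the windows of Tfrc had 3 and 2. The E-box CAGATG was in 14.4% of all windows, with 1 match in Klf1 and 2 in Epb42. Of the 9 genes, 7 were in the promoter table.

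Signals are MAS5 intensities as deposited, and differences are log2 of knockout over normal. None of the 8 member probe sets above the filter on dim probe sets, a mean signal of 14.7, passed an adjusted p of 0.05 in limma. Over all 27022 probe sets tested, 157 passed (0.581%), 103 with knockout higher (0.381%) and 54 with knockout lower (0.2%). At an unadjusted p under 0.05 the count was 2 of 8 members, against 11.5% of all probe sets. In bulk samples, fewer cells of a type and less RNA per cell cannot be told apart.

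Klf1, the zinc finger factor that switches on adult-type red cell genes, had a signal of 29.0, 21.8 and 31.2 in knockout kidneys, against 12.7, 19.7 and 13.2 in normal kidneys. Every knockout array lay above every normal array, and the closest pair was knockout replicate 2 and normal replicate 2. The means were 27.3 ± 4.92 in knockout and 15.2 ± 3.91 in normal kidneys (SD, n = 3 each). The log2 difference was 0.86 (SE 0.34; limma, adjusted p = 0.402).

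Gata1, the zinc finger factor without which red cell precursors fail to mature, had a signal of 26.1, 17.6 and 21.9 in knockout kidneys, against 21.6, 15.8 and 22.5 in normal kidneys. The groups overlapped, and the lowest values were those of replicate 2 in both. Its log2 difference was 0.13 (SE 0.33; limma, adjusted p = 0.904).

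Tal1, a basic helix-loop-helix factor that is also made in endothelium and megakaryocytes, had a signal of 98.4, 65.5 and 91.6 in knockout kidneys, against 83.9, 104 and 77 in normal kidneys. The groups overlapped, with knockout replicate 2 lowest and normal replicate 2 highest. Its log2 difference was -0.06 (SE 0.21; limma, adjusted p = 0.927).

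Hemgn, which encodes the nuclear protein hemogen of blood precursors, lay below the filter, with a signal of 23.1, 13.4 and 24 in knockout kidneys, against 1.3, 4.7 and 7.7 in normal kidneys. The groups did not overlap. Its log2 difference of 2.43 rests on normal signals near the bottom of the scale, and the fit without a filter gave an adjusted p of 0.37 (limma, SE 0.75).

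**Figure D1:**
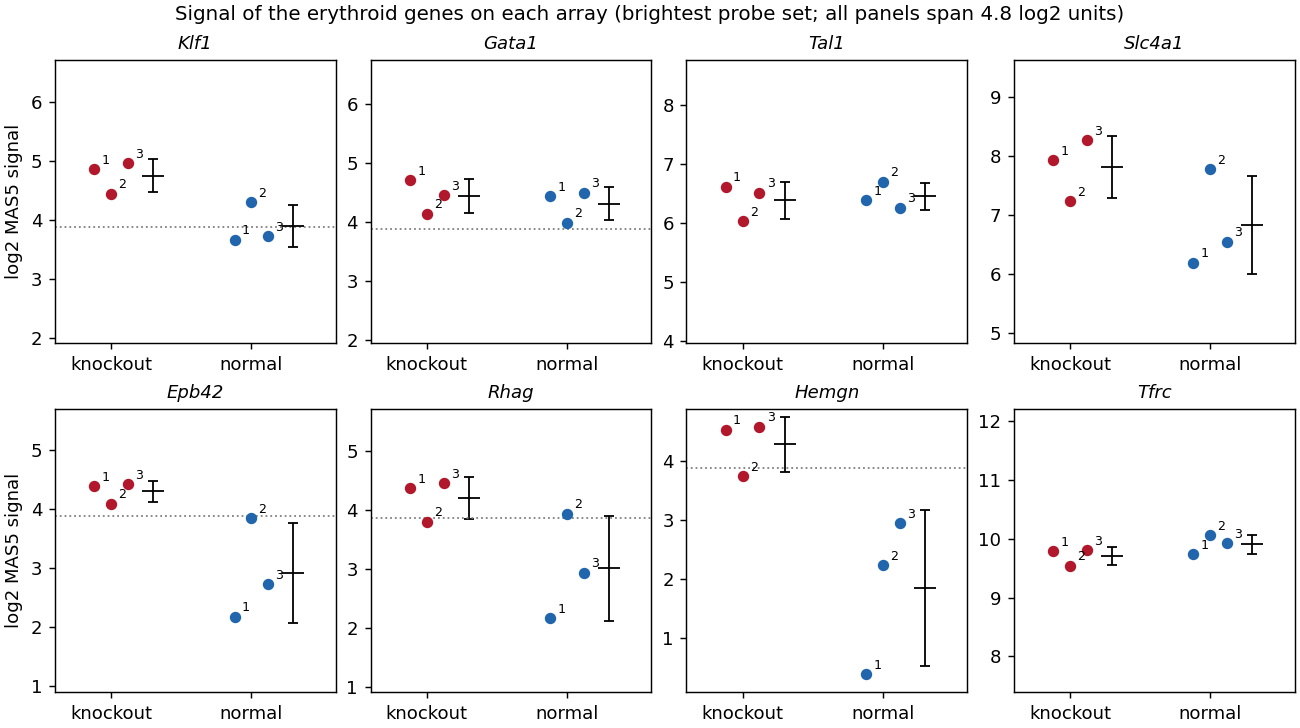
MAS5 signal intensity (log axis) of the brightest probe set of each member gene, with knockout arrays left of normal arrays. Digits are replicate numbers, black marks the mean ± SD of log2 values (n = 3 each), and the dotted line is the filter signal of 14.7. Klf1, Epb42 and Hemgn separate the groups, and the other genes overlap.

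Slc4a1 encodes band 3, the chloride-bicarbonate exchanger that anchors the red cell membrane to its skeleton and has a shorter form in intercalated cells of the mature kidney. Its brightest probe set, of a type that may also bind related transcripts, had a signal of 243, 150 and 308 in knockout kidneys, against 72.7, 218 and 93 in normal kidneys. The groups overlapped through normal replicate 2, which lay above knockout replicate 2. The means were 234 ± 79.2 in knockout and 128 ± 78.6 in normal kidneys (SD, n = 3 each), a log2 difference of 0.98 (SE 0.40; limma, adjusted p = 0.41). With the globin index described below as a covariate this difference was -0.08 (SE 0.33), smaller in size than its SE. With the same covariate the difference of Klf1 was 0.40 (SE 0.44), also smaller than its SE. It was 0.28 for Rhag, 0.53 for Epb42 and 1.96 for Hemgn, which lay below the filter and have no SE here. With an index of Hba-x and Hbb-bh1 alone as the covariate, that of Slc4a1 was 0.29 (SE 0.25), so its sign depended on the index.

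A second Slc4a1 probe set had 152, 93.3 and 180.4 in knockout kidneys, against 61.9, 144 and 72.8 in normal kidneys, with the arrays in the same order. Its log2 difference was 0.66 (SE 0.34; limma, adjusted p = 0.494). The remaining one stayed between 0.7 and 1.7 on all arrays, below the filter.

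Rhag, the Rh-associated glycoprotein, had a signal below the filter of 20.8, 14 and 22.1 in knockout kidneys, against 4.5, 15.4 and 7.7 in normal kidneys. Only the pair of knockout replicate 2 and normal replicate 2 overlapped. The log2 difference was 1.20 (SE 0.58; limma without a filter, adjusted p = 0.58), and 0.77 without normal replicate 1.

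Epb42, protein 4.2 of the membrane skeleton, had a signal below the filter of 20.9, 17 and 21.4 in knockout kidneys, against 4.5, 14.4 and 6.6 in normal kidneys. The groups did not overlap. The log2 difference was 1.38 (SE 0.56; limma without a filter, adjusted p = 0.514). Its dimmer probe set had 8.8, 2.5 and 21.9 in knockout kidneys, against 1.2, 4.2 and 7.2 in normal kidneys, and overlapped.

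Tfrc, the transferrin receptor that every dividing cell uses to take up iron, had a signal of 881, 743 and 895 in knockout kidneys, against 849.9, 1066 and 969 in normal kidneys. The groups overlapped, and the lowest array was knockout replicate 2. Its log2 difference was -0.19 (SE 0.11; limma, adjusted p = 0.538), and -0.11 without knockout replicate 2 or -0.12 without normal replicate 2. The other tested probe sets of Tfrc had log2 differences of -0.15 and 0.10 (limma, adjusted p = 0.754 and 0.918). The ratio of its 3′ to its 5′ control probe set, a sign of RNA length, was 3, 5.50 and 4.52 in knockout kidneys, against 3.77, 3.67 and 3.38 in normal kidneys, and its part in the results was not tested.

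Of the 13 member probe sets that are no controls, 3 separated the groups with knockout higher and 0 with knockout lower. Over all 45037 such probe sets, 7.76% separated them with knockout higher and 14.7% in either direction, and over the 27022 tested ones 9.17% did so with knockout higher. The 3 belong to Klf1, Epb42 and Hemgn, and 2 of them lay below the filter.

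**Figure D2:**
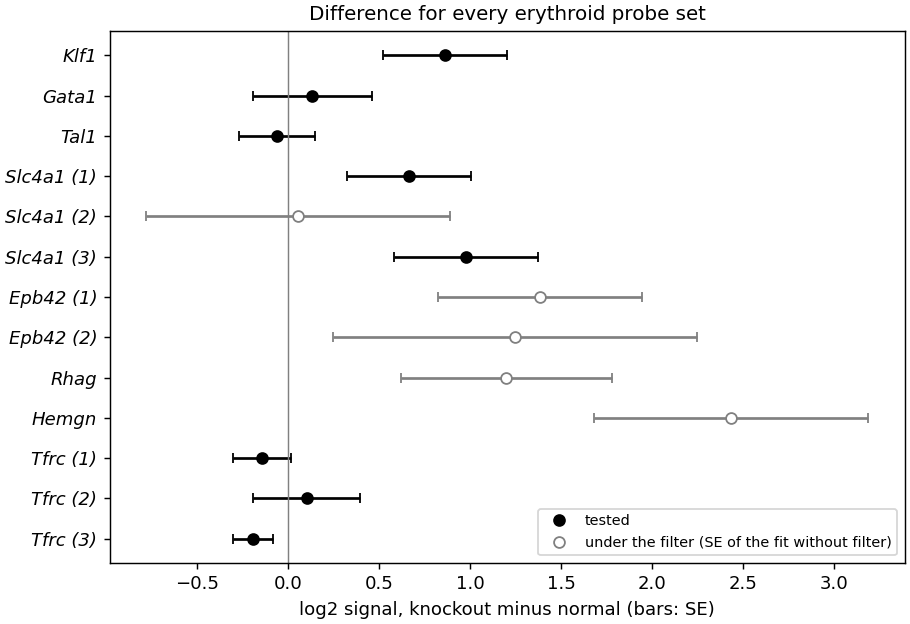
Log2 difference, knockout minus normal, of the member probe sets with SE bars from limma, filled where tested and open below the filter, with a number in brackets where a gene has several. Hemgn lies at 2.43, the brightest probe set of Slc4a1 (3) at 0.98 and Klf1 at 0.86, while Gata1, Tal1 and Tfrc lie near 0.

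Blood content was read from 5 globin genes that are no members, Hba-x, Hba-a2, Hbb-y, Hbb-bh1 and Hbb-b2, as the mean of their log2 signals. Relative to the normal mean this globin index was 0.32, 0.37 and 0.76 in knockout kidneys, against -0.18, 0.36 and -0.18 in normal kidneys. The groups overlapped only through normal replicate 2. The difference was 0.48, with an exact two-sided permutation p of 0.2, where 0.1 is the smallest that 20 splits allow. Hba-x, the embryonic alpha-like globin, had a signal of 4286, 3681 and 7301 in knockout kidneys, against 2539, 5745 and 2527 in normal kidneys. Hbb-bh1, an embryonic beta-like globin, had 1433, 1337 and 4358 in knockout kidneys, against 653, 1908 and 649 in normal kidneys. Both were highest on knockout replicate 3 and lowest on normal replicates 1 and 3. The dimmer Hba-a2 had 106.6, 107 and 101.9 in knockout kidneys, against 51.9, 70.6 and 110.2 in normal kidneys, highest on normal replicate 3. Hbb-b2 had 51.7, 71.8 and 47.6 in knockout kidneys, against 74.2, 48 and 34.7 in normal kidneys, highest on normal replicate 1. The genes of the index thus did not share 1 order of arrays. Hbb-y varied by only 0.069 (SD of log2 over 6 arrays), with signals near the top of the scale, and Hba-a2 and Hbb-b2 may share signal with near-identical copies.

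Over the 6 arrays, Slc4a1 followed the index with a Pearson r of 0.927 (exact permutation p = 0.0167, adjusted 0.433; Spearman rho 0.714, exact p = 0.136). Klf1 had an r of 0.919 (exact p = 0.0139, adjusted 0.414; rho 0.771, exact p = 0.103). Epb42 had an r of 0.908 (exact p = 0.0222, adjusted 0.447; rho 0.771, exact p = 0.103). These 3 of 8 genes had an r of at least 0.9, against 0.9% of 27000 probe sets of other genes.

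Rhag had an r of 0.894 (exact p = 0.0264, adjusted 0.457; rho 0.714, exact p = 0.136) and Hemgn of 0.71 (exact p = 0.122, adjusted 0.616; rho 0.6, exact p = 0.242). Tal1 had 0.279 (exact p = 0.599, adjusted 0.88; rho 0.143, exact p = 0.803), Tfrc -0.0803 (exact p = 0.918, adjusted 0.978; rho -0.143, exact p = 0.803) and Gata1 -0.177 (exact p = 0.699, adjusted 0.916; rho -0.371, exact p = 0.497). No gene passed after adjustment over 27013 probe sets. The smallest p that 720 orders allow is 0.00139, so a gene could pass only if very many probe sets reached that value. The lack of a pass therefore says little about any single gene. Without normal replicates 1 and 3, the arrays farthest from the median of the index, r was 0.652 for Slc4a1, 0.598 for Klf1, 0.51 for Epb42, 0.567 for Rhag and 0.438 for Hemgn, so the relation rests in large part on those arrays. With each group centred on its own mean, r was 0.87 for Slc4a1, 0.834 for Klf1, 0.789 for Epb42, 0.772 for Rhag and 0.27 for Hemgn, and 0.666 for Tfrc, 0.566 for Tal1 and -0.572 for Gata1. Within groups, then, Tfrc and Tal1 lay above Hemgn.

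**Figure D3:**
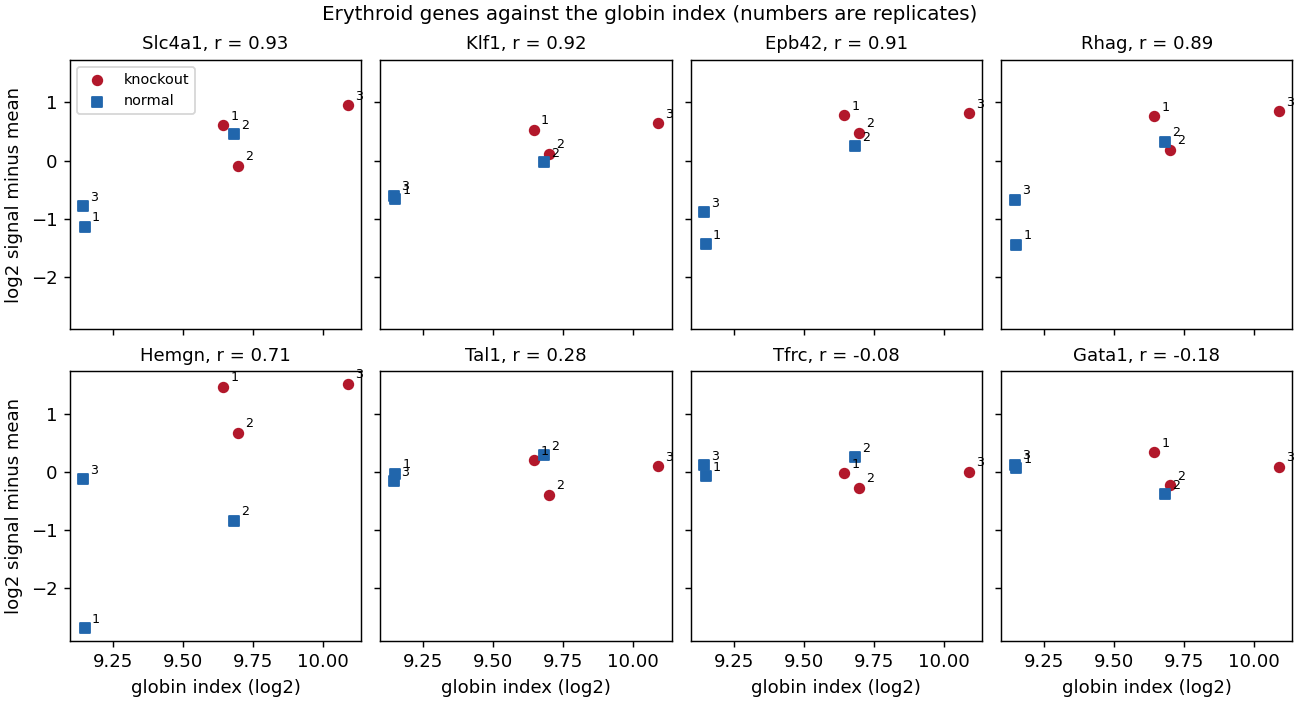
Log2 signal of each member gene against the globin index, 1 point per array labelled with its replicate, knockout and normal in separate colours. Slc4a1, Klf1, Epb42 and Rhag rise along the index (r from 0.894 to 0.927), and Gata1, Tal1 and Tfrc have r from -0.177 to 0.279.

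Because Hbb-y hardly varied, an index of Hba-x and Hbb-bh1 alone was added after the data were seen. Relative to the normal mean it was 0.49, 0.33 and 1.68 in knockout kidneys, against -0.45, 0.91 and -0.46 in normal kidneys. Slc4a1 had an r of 0.931 with it, Klf1 0.854, Rhag 0.851, Epb42 0.827 and Hemgn 0.608. Without knockout replicate 3 and normal replicate 3, r was 0.925 for Slc4a1, 0.695 for Klf1, 0.873 for Rhag, 0.82 for Epb42 and 0.59 for Hemgn. Normal replicate 1, almost as low as normal replicate 3, stayed in. With this index 1 of 8 genes reached an r of 0.9, against 0.763% of probe sets of other genes. A planned index of other red cell membrane genes, without globins, gave lower values. With it r was 0.776 for Klf1, 0.726 for Slc4a1, 0.7 for Epb42, 0.641 for Rhag and 0.402 for Hemgn. No member gene reached 0.9 with that membrane index, so the strength of the relation depended on the index.

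Klf1, Slc4a1, Epb42, Rhag and Hemgn, grouped here after their values were seen, had pairwise r from 0.766 to 0.985 over the 6 arrays. Rhag and Epb42 stood closest, at 0.985. Between these 5 and Gata1, Tal1 and Tfrc, r ran from -0.17 to 0.522, and among those 3 genes from -0.147 to 0.717. Within groups this division did not hold for Tfrc, nor for Tal1 other than with Hemgn (0.25). Gata1 stayed apart within groups, with r from -0.494 with Epb42 to 0.112 with Hemgn. With each group centred on its own mean, r ran from 0.445 to 0.986 within the 5 and from -0.494 to 0.929 between the 5 and the 3, with 0.929 for Rhag and Tfrc, 0.925 for Slc4a1 and Tfrc and 0.899 for Klf1 and Tal1. Without the 2 arrays farthest from the median of the first gene of each pair, r ran from 0.264 to 0.98 within the 5. Between the 5 and the 3 it then ran from -0.698 to 0.896. Those 2 arrays differed from pair to pair, so these ranges describe no single set of arrays. All pairwise r come from 6 arrays whose points share 1 scaling per array. Knockout replicate 3 was highest and knockout replicate 1 next for each of the 5 genes, and normal replicate 1 was lowest for each. Normal replicate 2 stood above knockout replicate 2 for Slc4a1 and Rhag and below it for Klf1, Epb42 and Hemgn.

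**Figure D4:**
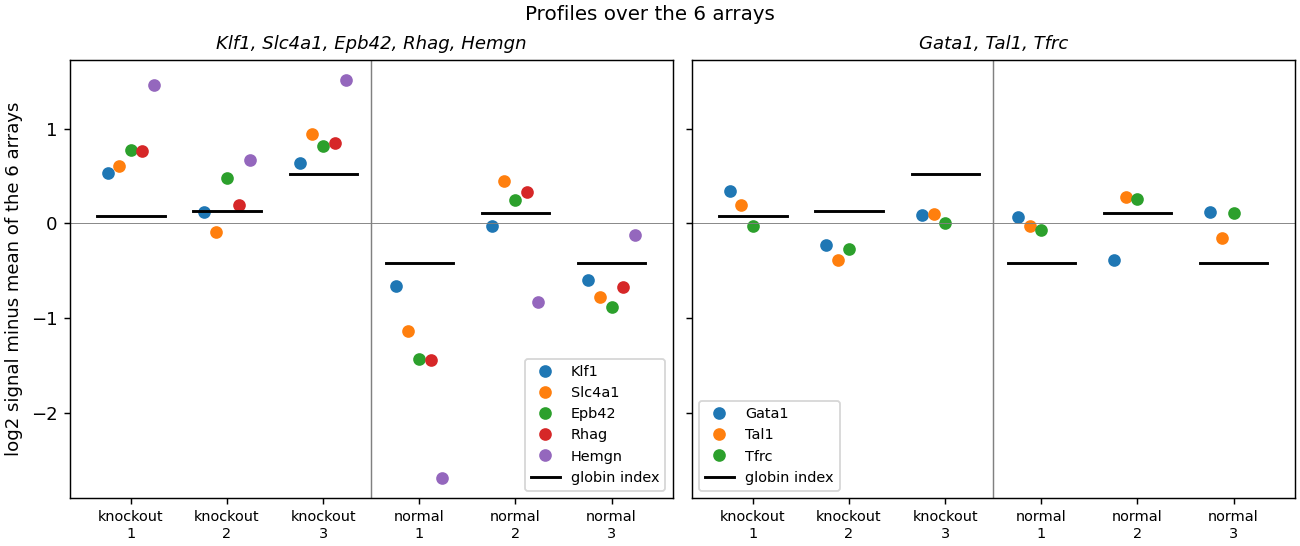
Log2 signal minus the mean of the 6 arrays, for Klf1, Slc4a1, Epb42, Rhag and Hemgn on the left and for Gata1, Tal1 and Tfrc on the right, with the globin index as black bars. The genes on the left are lowest on normal replicate 1 and highest on knockout replicate 3. Those on the right run from -0.389 to 0.339 and do not share that order.

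The 8 genes most like the mean profile of Klf1, Gata1, Tal1 and Slc4a1, among 3294 candidate genes, were Slc25a37, Trim10, Bcl2l12, Car2, Alas2, Bpgm, Syt16 and Cdca3, with Pearson r from 0.979 to 0.938 over the 6 arrays. That profile was a mean of unscaled log2 values, so it leaned on the genes that varied most. The SD of log2 signal was 0.821 for Slc4a1 and 0.548 for Klf1, against 0.262 for Gata1 and 0.247 for Tal1. Of the 8 genes, 5 stand in the red cell lists described next. Those lists were chosen with earlier results of these data known, and the share of list genes among all candidates was not counted. Alas2, the red cell enzyme of the first step of heme synthesis, had a signal of 218, 118 and 333 in knockout kidneys, against 51.2, 190.4 and 65 in normal kidneys. Car2, a carbonic anhydrase, had 321, 201 and 446 in knockout kidneys, against 136.5, 277 and 133 in normal kidneys. Alas2 has the order of arrays seen for Slc4a1, while Car2 was lowest on normal replicate 3, and none of the 8 passed limma (adjusted p from 0.338 to 0.545).

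Other genes of the lineage were read by list, as counts of genes past limma's adjusted threshold. Over all 12464 genes tested, 75 passed (0.602%), and the median log2 difference was -0.00. Of the globins, 0 of 5 passed, with a median of 0.51. Of heme synthesis, 1 of 12 rose and 1 fell, with a median of 0.11. Tmem14c, a mitochondrial protein needed for heme synthesis, had 603, 606 and 612 in knockout kidneys, against 104.5, 85.3 and 102.5 in normal kidneys, a log2 difference of 2.64 (limma, adjusted p = 2.02e-05). Alad, the enzyme of the second step of that pathway, had 430.1, 441 and 511 in knockout kidneys, against 769, 831 and 739 in normal kidneys, a log2 difference of -0.76 (limma, adjusted p = 0.0134). Neither has the array order of Slc4a1, since all 3 knockout arrays stand together.

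Of other red cell transcription factors and cofactors, 0 of 16 passed, with a median of -0.02, and Nfe2 at 0.96 and Bcl11a at 0.73 had the smallest p. Of other membrane and skeleton genes, 0 of 13 passed, with a median of 0.08, and Ermap at 1.05 and Ank1 at 0.54 had the smallest p. Of iron uptake and erythropoietin reception, 0 of 13 passed, with a median of 0.00 and Aco1 at 0.25 and Hfe at 0.44. Of other late red cell genes, 0 of 14 passed, with a median of 0.33 and Hebp1 at -0.80 and Fam210b at 0.58. The median of the 5 member genes tested was 0.13.

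Markers of other cells were read beside these. Macrophage markers had positive differences in 12 of 13 genes, with a median of 0.74 (Mpeg1 1.07, C1qb 0.74) and summed signals of 1188 to 1721 in knockout and 574.5 to 1251 in normal kidneys. Megakaryocyte and platelet markers had positive differences in 7 of 7, with a median of 0.30 (Ppbp 0.84, Pf4 0.31) and sums of 484 to 710 in knockout and 382 to 496 in normal kidneys. Skeletal muscle markers had positive differences in 11 of 11, with a median of 1.87 (Tnnt2 2.06, Actc1 1.65) and sums of 556 to 7640 in knockout and 459.9 to 573 in normal kidneys, highest on knockout replicate 2. Relative to the normal mean, the mean log2 signal of the muscle list was 1.525, 3.791 and -0.025 in knockout kidneys, so knockout replicate 3 was not raised. None of these genes passed limma, and the part of these cells in the members' values was not tested.

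Endothelial markers were positive in 4 of 12, with a median of -0.12 (Kdr -0.40, Robo4 -0.62) and sums of 2250 to 2486 in knockout and 2086 to 3062 in normal kidneys. Chromaffin and sympathetic markers were positive in 5 of 8, with a median of 0.07 (Gata3 -0.54, Stmn2 0.42) and sums of 364.5 to 1320 in knockout and 334 to 1938 in normal kidneys. Kidney identity markers were measured in 13 genes with 0 past limma's threshold, a median of -0.05 and sums of 7640 to 8965 in knockout and 7975 to 9049 in normal kidneys.

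**Figure D5:**
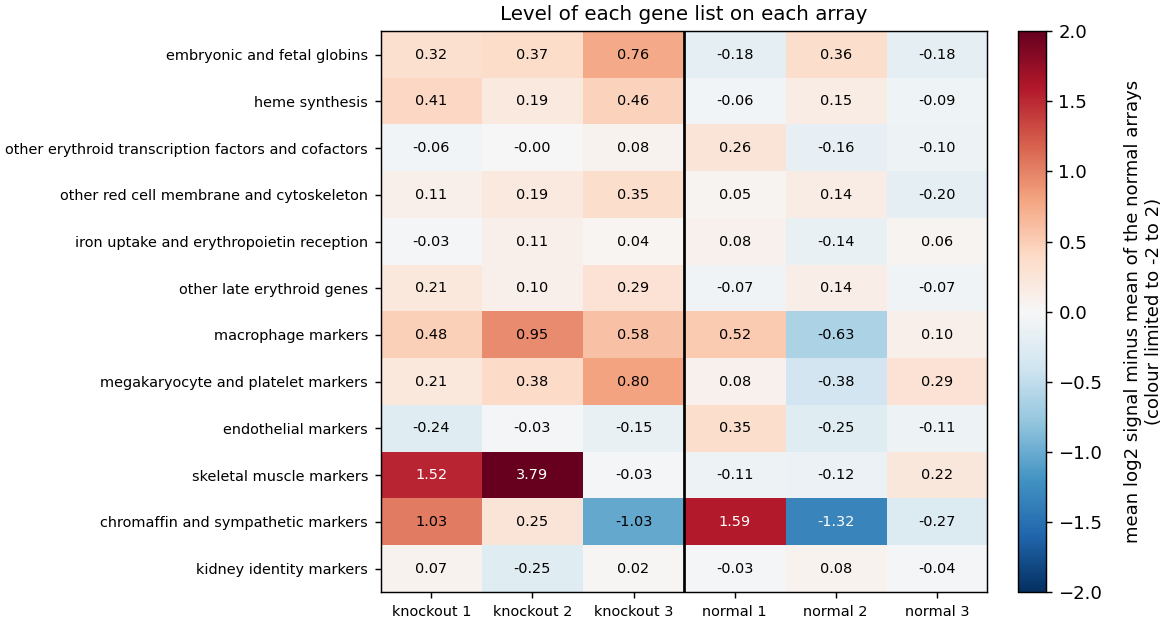
Mean log2 signal of each gene list per array relative to the normal mean, knockout arrays left of normal arrays. The globin list is highest on knockout replicate 3 (0.76), and the skeletal muscle list on knockout replicate 2 (3.79).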

How the data were processed

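Biotin-labelled RNA of 6 samples, 3 knockout and 3 normal, was hybridised to 1 array each. The authors deposited MAS5 signal intensity per probe set, per the submitters' processing notes; for the version and scaling target, the answer is not given in the sources used here. Array medians ran from 24.9 to 32.1, a span of 0.366 on the log2 scale, so no further scaling was done. Zeros, 15 in all, took the value 1.7 (10th percentile of signals above 0), and log2 was taken of the deposited intensities. Probe sets above the 40th percentile of mean log2 signal (27022 of 45037) were tested with limma 3.58.1 (R 4.3.3; lmFit, eBayes with an intensity trend, Benjamini-Hochberg). The number of arrays limits the precision. A gene was read by its brightest probe set.

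Gene symbols came from the platform annotation, with 34945 non-control probe sets having 1 symbol, 932 several and 9160 none. Correlations used exact permutations of 720 orders, adjusted over all probe sets rather than over the members, as the plan had it, because members and lists were chosen with earlier results of these data known. The 12 lists cover globins, heme synthesis, other red cell transcription factors, membrane, iron uptake, late red cell genes, and macrophage, megakaryocyte, endothelial, muscle, chromaffin and kidney markers. Named were all members, up to 3 genes per list past the threshold or otherwise the 2 with the smallest p, except kidney markers, and the 8 genes most like the mean profile of the kept members without Tfrc, among genes with an SD of at least 0.3. Alternatives changed scaling, filter, pseudocount, fit, index and arrays used. The statistics were tested on simulated data.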

Additional observations from a re-analysis of the deposited data

How the results depend on the processing

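No member probe set passed limma's threshold under any alternative, and no gene's correlation with the globin index passed after adjustment. The smallest p that 720 orders allow left that correlation test little room to pass. The count over all probe sets, 157 as reported, was 447 with median centring, 41 without the intensity trend, 82 with the globin index as a covariate and 31 without normal replicate 1 and knockout replicate 1. Counted over genes, 65 passed with the mean of all kept probe sets of a gene, against 75 with the brightest. Leaving out 1 array at a time gave 49 to 148, lowest without knockout replicate 3. Knockout was higher in 65.6% of calls as reported, 65.7% after quantile normalization and 60.2% after median centring.

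Same-numbered samples had correlations of deviations of 0.0827, -0.108 and -0.201, which show no sign of pairing by number. Pairs of unlike number were not compared, so these values do not settle whether the samples were paired. The replicate block gave 109 calls over all probe sets and 0 among the members.

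The difference of Slc4a1 turned to -0.0812 (SE 0.33) with the globin index as a covariate, and that of Klf1 fell to 0.402 (SE 0.442). The same covariate took the difference of Rhag to 0.283, Epb42 to 0.532, Gata1 to 0.411, Tal1 to -0.334 and Tfrc to -0.377. With the index of Hba-x and Hbb-bh1 as the covariate, that of Slc4a1 stayed positive, at 0.289 (SE 0.248). Leaving out 1 array gave 0.745 to 1.06 for Klf1, 0.653 to 1.45 for Slc4a1, 0.772 to 1.66 for Rhag, 1.01 to 1.85 for Epb42, 1.7 to 2.98 for Hemgn and -0.281 to -0.109 for Tfrc. The globin difference of 0.484 was 1.12 with the median of the globins, 0.835 with Hba-x and Hbb-bh1 and 0.345 to 0.662 without 1 array. That of Gata1 turned to -0.00704 without knockout replicate 1 and -0.0303 without normal replicate 2, in a range of -0.0303 to 0.277. That of Tal1 turned to 0.114 without knockout replicate 2 and 0.0617 without normal replicate 2, in a range of -0.179 to 0.114, and was -0.211 without normal replicate 1 and knockout replicate 1. The r of Gata1 turned to 0.285 with quantile normalization, 0.275 with median centring and 0.179 without the 2 farthest arrays. The r of Tfrc turned to 0.543 with median centring, 0.0922 with the median of the globins, 0.666 centred within groups and 0.151 with the index of Hba-x and Hbb-bh1. The cause was not tested. The other 246 values, those above that kept their sign included, kept their direction and side of the threshold, though not always their size. Signals of Rhag, Epb42 and Hemgn below the filter limit what can be said of their size.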
